A study of Macaca mulatta with 43 samples.

Results

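The genes described here encode the proteins that fuse neurotransmitter vesicles with the presynaptic membrane and retrieve them afterwards, together with their close relatives at other membranes of the cell. They were taken from the array's probe table by gene symbol: synaptotagmins, synapsins, syntaxins, syntaxin-binding proteins, VAMPs, the SNAP-25 family, complexins, SV2 proteins, RIMs, UNC13 proteins, NSF and its adaptors, dynamins and synaptogyrins. This gave 47 genes of the 14132 gene symbols that have a probeset of their own. They were measured by 77 probesets, and each gene is represented by the probeset with the highest mean over all arrays. No measured difference entered the choice of probeset, but the families were chosen with earlier results of these data known. All 47 genes passed the filter on low values.

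Expression was measured by Affymetrix microarray in prefrontal cortex of 43 adult male rhesus macaques, with Brodmann areas 24, 25 and 32 pooled within an animal and 1 array per animal. The 32 ethanol animals had been induced to drink by schedule-induced polydipsia and then had access to 4% ethanol (weight by volume) for 22 h a day over 1 year. The 11 control animals received a maltose dextran solution in a caloric match to a drinker, and all groups had water. Cohort 4 held 11 ethanol animals and no control, cohort 5 held 8 ethanol animals and 5 controls, cohort 7a held 8 and 4, and cohort 7b held 5 and 2. RNA of cohorts 4 and 5 was extracted with another kit than that of cohorts 7a and 7b. Values are log2 units after RMA, so a difference of 1 unit is a 2-fold difference, and levels are compared between animals for one gene and never between genes. In tissue RNA, fewer cells of a type and less RNA per cell cannot be told apart.

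Membrane fusion in every cell is driven by SNARE proteins. A SNARE on the vesicle, usually a VAMP, zips together with syntaxin and SNAP-25-type SNAREs on the target membrane, and the set of SNAREs differs from one compartment to the next. At the synapse, VAMP2, syntaxin-1 and SNAP-25 form the complex, UNC13, RIM and syntaxin-binding proteins prepare the vesicle, complexin and synaptotagmin hold it and release it on calcium, NSF with its SNAP adaptors takes the spent complex apart, and dynamin pinches new vesicles from the membrane. Of the synaptic core, SYT1, STX1A, VAMP1, VAMP2, CPLX2, SYN2, SV2A and DNM1 were measured by probesets of their own, whereas SNAP25, CPLX1, SYN1, RIMS1, UNC13A, NSF and NAPB were not analysed here.

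Over all 43 arrays, 6 of the 47 genes were higher and 4 were lower in ethanol animals than in controls at an adjusted p under 0.05 (limma, Benjamini-Hochberg over 24151 probesets). The 6 were SV2A, STX16, UNC13B, DNM2, SV2B and VAMP1, and the 4 were SYT16, VAMP8, STX8 and VAMP4. Among all probesets tested, 5.57% were called higher and 10.6% lower, so 10 of 47 genes, or 21.3%, stood beside 16.2% of all probesets. The median log2 difference was -0.02 over the 47 genes and -0.04 over all probesets. With arrays centred on their medians, the calls were 8 higher and 3 lower of the 47 genes and 1825 higher and 1239 lower of all probesets, against 1345 and 2556 as deposited. These counts rested on the controls of cohorts 7a and 7b: leaving out control 37 or control 38 of cohort 7b left 1 higher and 1 lower, and leaving out control 25, 26, 27 or 28 of cohort 7a left 5, 3, 2 or 2 higher and 2, 3, 2 or 3 lower. SV2A and VAMP8 passed in each of the 16 fits that left out 1 array of a group of 5 or fewer. Weighting arrays by their quality left no call among the 47 genes and none among all probesets, where 4 of the 47 genes and 2209 probesets had an unadjusted p under 0.05.

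Because 11 of the ethanol animals had no control of their own cohort, the same comparison was fitted with cohort as a block. It called 12 genes higher and 9 lower, against 11.8% and 21.5% of all probesets. All 10 genes called without the block were among them, and NAPA, CPLX2, DNM1, STX3, STX10, SYT12, VAMP2, VAMP5, VAMP7, SYT14 and STXBP6 joined them. With the 8 processing batches as a block, 7 genes were higher and 6 lower, against 8.22% and 14.4% of all probesets. Of the 10 genes called without a block, SV2A, SV2B, DNM2, VAMP4, VAMP8, STX8 and SYT16 passed under both blocks, and UNC13B, STX16 and VAMP1 did not pass with the batches as a block.

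**Figure D1:**
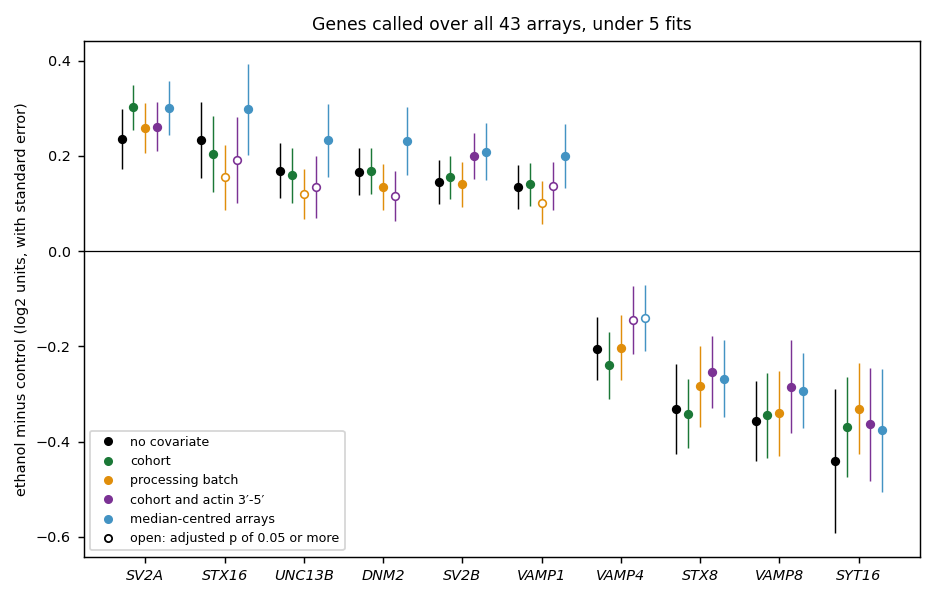
Log2 difference of ethanol minus control animals (y axis, log2 units, bars give the standard error) for the 10 genes called over all 43 arrays, under 5 fits. Filled points have an adjusted p under 0.05. SV2A, SV2B, STX8, VAMP8 and SYT16 are filled under all 5 fits shown.

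The cohorts differed in what they showed. Within cohort 5, none of the 47 genes passed, against 0% of all probesets, and 2 of the 47 genes and 731 probesets had an unadjusted p under 0.05. Within cohort 7a, 8 genes were higher and 7 lower, against 10.6% and 20.3% of all probesets. Within cohort 7b, 12 were higher and 11 lower, against 14% and 26.1%. Read together, 31.9% of the genes were called in cohort 7a and 48.9% in cohort 7b, beside 30.9% and 40.1% of all probesets, and nothing is read about the families from these shares. Centred arrays gave 14 higher and 3 lower in cohort 7a, 36.2% of the genes beside 27.5% of all probesets, and 19 higher and 8 lower in cohort 7b, 57.4% beside 40.1%. Leaving out control 37 of cohort 7b gave 8 higher and 6 lower in that cohort, and leaving out control 38 gave 7 and 8.

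Cohorts 7a and 7b had separate controls and can be read side by side. CPLX2, DNM1, SV2A, SYT12 and UNC13B were higher in both, 5 of 47 genes against 7.68% of all probesets. STX8, VAMP2, VAMP4, VAMP5, VAMP7 and VAMP8 were lower in both, 6 of 47 against 14%. With processing batch as a block, VAMP2, VAMP5 and UNC13B were called in neither cohort and SYT12 in cohort 7a alone. The difference between the mean effect of cohorts 7a and 7b and the effect in cohort 5 was itself tested, and it was positive for 10 genes and negative for 8, against 10.3% and 21.3% of all probesets. With centred arrays it was positive for 17 and negative for 6, or 48.9% of the genes beside 29.5% of all probesets, and without control 38 of cohort 7b it was positive for 6. VAMP8, STX8 and SV2A had the smallest p-values of the 47.

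**Figure D2:**
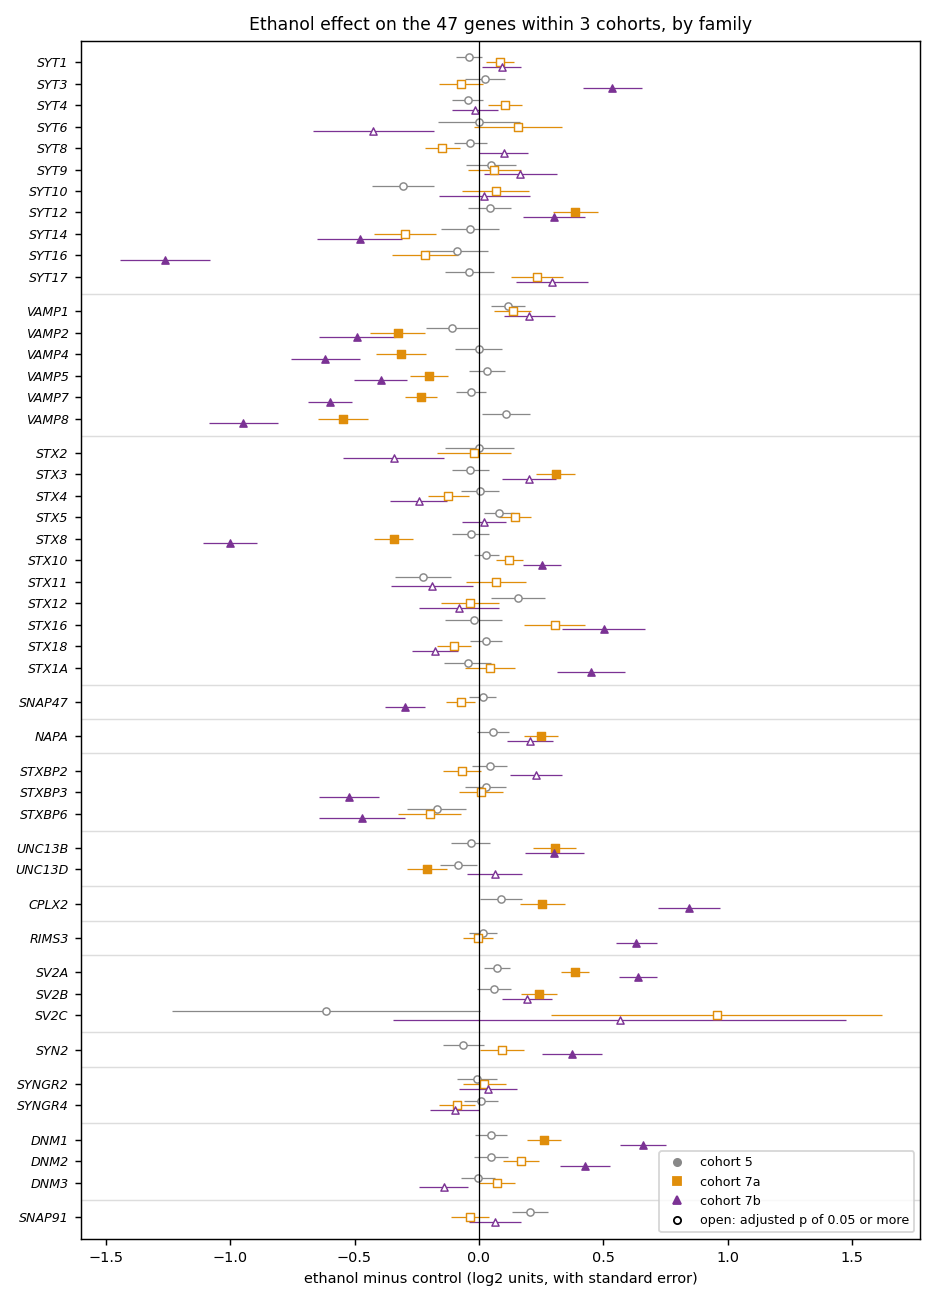
Log2 difference of ethanol minus control animals (x axis, log2 units, bars give the standard error) for each of the 47 genes, grouped by family, within cohort 5 (circles), cohort 7a (squares) and cohort 7b (triangles). Filled symbols have an adjusted p under 0.05. No symbol of cohort 5 is filled, and 5 of the 6 VAMPs lie left of 0 and are filled in both other cohorts.

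Of 2 measures of RNA quality, the one from beta-actin moved with treatment in cohort 7a. Beta-actin is probed near its 3′ and 5′ ends, and the 3′ minus 5′ value was 0.93 to 1.60 log2 units in ethanol animals of cohort 7a, against 0.76 to 0.87 in its controls (two-sided exact permutation test, p = 0.00404, the smallest that 8 against 4 allow, adjusted p = 0.0242 over 6 tests). It was 0.76 to 1.71 in ethanol animals of cohort 7b and 0.75 to 0.81 in its controls (exact permutation p = 0.19). The mean difference was 0.32 in cohort 7b, beside 0.45 in cohort 7a. In cohort 7b, 5 against 2 animals do not allow this test a p under 0.05, so it decides nothing there. In cohort 5 the means were 4.54 ± 0.20 in ethanol animals, against 4.50 ± 0.21 in controls (SD, n = 8 and 5), with an exact permutation p of 0.737. For GAPDH the same value was higher in ethanol animals of cohort 7a by 0.18 log2 units (exact permutation p = 0.0242, adjusted p = 0.0726), differed by 0.08 in cohort 5 (exact permutation p = 0.42) and by -0.14 in cohort 7b (exact permutation p = 0.571). With cohort and this value in the model, 6 genes were higher and 3 lower, or 19.1% of the genes beside 15.6% of all probesets: SV2A, SV2B, CPLX2, DNM1, NAPA and SYNGR2 were higher, and VAMP8, STX8 and SYT16 were lower. The part of RNA quality in the other calls was not tested.

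Calls of the VAMPs, the SNAREs of vesicles, ran mostly one way. Of 6 VAMPs, 5 were lower in ethanol animals of cohort 7a and 5 in those of cohort 7b, none was higher in either, and none was called in cohort 5. Of all probesets, 20.3% were lower in cohort 7a and 26.1% in cohort 7b. With processing batch as a block, VAMP4, VAMP7 and VAMP8 were lower in each of these cohorts and VAMP2 and VAMP5 in neither. The median log2 difference of the 6 was -0.27 in cohort 7a and -0.54 in cohort 7b, beside -0.07 for all probesets in each cohort. With centred arrays, 2 VAMPs were lower in cohort 7a (VAMP7 and VAMP8), and in cohort 7b 5 were lower and VAMP1 was higher.

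VAMP8, a SNARE of late endosomes that also serves granule release in blood cells, was lower in both cohorts 7a and 7b. In cohort 7a its levels in ethanol animals ran from 6.59 over a median of 6.84 to 7.03, against 6.97, 7.36, 7.51 and 7.58 in controls, so that 7 of 8 ethanol animals lay below every control. In cohort 7b they were 6.72, 6.42, 6.75, 6.74 and 6.92 in ethanol animals, against 7.76 and 7.55 in controls, with no overlap. The log2 difference was -0.55 in cohort 7a (SE 0.10, limma adjusted p = 7.78e-05) and -0.95 in cohort 7b (SE 0.14, limma adjusted p = 5.78e-07), and expression in ethanol animals was 0.685 and 0.519 of that in controls. Cohort 5 ran the other way within its spread, at 6.94 ± 0.16 in ethanol animals, against 6.84 ± 0.10 in controls (SD, n = 8 and 5), and the difference of effects was -0.85 (SE 0.13, limma adjusted p = 2.12e-06). Of the 4 processing batches of cohorts 7a and 7b that held both groups, 1 held cohort 7a alone and gave a mean difference of -0.55, and 1 held 1 ethanol animal and 1 control of each cohort and gave -0.97. The other 2 did not balance the cohorts, so that cohort and treatment cannot be told apart in them. An ethanol animal of each cohort against 2 controls of cohort 7a gave -0.35, and 3 ethanol animals of cohort 7a against 1 control of cohort 7b gave -1.12.

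Microglial markers moved beside VAMP8. For 6 such genes, the log2 summed level in cohort 7a was 10.04 to 10.44 in ethanol animals, against 10.50 to 11.00 in controls. In cohort 7b it was 10.10 to 10.59, against 10.82 and 10.84 in controls, so groups overlapped in neither cohort. AIF1, CX3CR1 and P2RY12 were lower in cohort 7a, AIF1 and P2RY12 were lower and CSF1R was higher in cohort 7b, and C1QA and C1QB passed in neither. The part of microglia in the VAMP8 result was not tested. A second VAMP8 probeset gave -0.18 in cohort 7a (limma adjusted p = 0.146) and -0.59 in cohort 7b (limma adjusted p = 0.000222). VAMP5, which lies next to VAMP8 in the RefSeq annotation and was first described in muscle, was also lower, with a difference of -0.20 log2 units (SE 0.08, limma adjusted p = 0.0449) in cohort 7a and -0.39 (SE 0.11, limma adjusted p = 0.0024) in cohort 7b. It and the other genes outside the naming rule were picked after their values were seen.

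VAMP7 carries cargo from lysosomes and late endosomes to the cell surface and serves neurite growth. Its levels in cohort 7a were 9.51 to 9.73 in ethanol animals with a median of 9.59, against 9.82, 9.89, 9.78 and 9.87 in controls, without overlap. In cohort 7b they were 9.59, 9.67, 9.94, 9.38 and 9.63 in ethanol animals, against 10.30 and 10.18 in controls, again without overlap. The log2 differences were -0.23 (SE 0.06, limma adjusted p = 0.0054) and -0.60 (SE 0.09, limma adjusted p = 6.04e-07). Drinkers of cohorts 7a and 7b were also lower than drinkers of cohorts 4 and 5, by -0.47, and the fit over all arrays without a block gave -0.15 (limma adjusted p = 0.208).

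VAMP4, a SNARE of the trans-Golgi network and of bulk endocytosis at synapses, was measured by 3 probesets that all fell. The representative one ran from 7.74 over a median of 8.06 to 8.37 in ethanol animals of cohort 7a, against 8.62, 8.33, 8.42 and 8.13 in controls. In cohort 7b it gave 8.31, 7.98, 8.29, 7.90 and 7.83 in ethanol animals, against 8.92 and 8.44 in controls. Groups overlapped in cohort 7a and not in cohort 7b. The log2 differences were -0.31 (SE 0.10, limma adjusted p = 0.0152) and -0.62 (SE 0.14, limma adjusted p = 0.000318), and those of the other probesets were -0.42 and -0.40 in cohort 7a and -1.04 and -0.69 in cohort 7b, each past the threshold. Without control 37 of cohort 7b the difference there was -0.38 (limma adjusted p = 0.0983), and without control 25 of cohort 7a it was -0.23 in that cohort (limma adjusted p = 0.106). Its call over all arrays did not pass with cohort and the actin value in the model (-0.15, limma adjusted p = 0.162).

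VAMP2, the main vesicle SNARE of fast transmitter release, was lower in cohort 7a, where ethanol animals ran from 6.85 over a median of 7.07 to 7.51 and controls had 7.48, 7.23, 7.63 and 7.41. Of the 8 ethanol animals, 6 lay below every control. In cohort 7b ethanol animals had 7.22, 7.04, 6.76, 6.88 and 6.96, against 7.48 and 7.45 in controls. The log2 differences were -0.33 (SE 0.11, limma adjusted p = 0.0225) and -0.49 (SE 0.15, limma adjusted p = 0.0089). With processing batch as a block they were -0.33 (limma adjusted p = 0.0579) and -0.43 (limma adjusted p = 0.0772), and with arrays centred -0.26 (limma adjusted p = 0.0571) and -0.39 (limma adjusted p = 0.0251). Leaving out control 25 or 27 of cohort 7a ended the call there (-0.31 and -0.26, limma adjusted p = 0.0568 and 0.111), and leaving out control 37 or 38 ended that of cohort 7b (-0.48 and -0.50, limma adjusted p = 0.073 and 0.0552). VAMP1, the other synaptobrevin, which prevails in brainstem and spinal cord, was 7.58 ± 0.13 in all ethanol animals, against 7.45 ± 0.13 in all controls (SD, n = 32 and 11), and the groups differed by 0.14 log2 units (SE 0.05, limma adjusted p = 0.0409). The VAMP1 differences within cohorts 5, 7a and 7b were 0.12, 0.14 and 0.20, none past the threshold, and its call over all arrays was lost with the batches as a block (0.10, limma adjusted p = 0.0962).

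**Figure D3:**
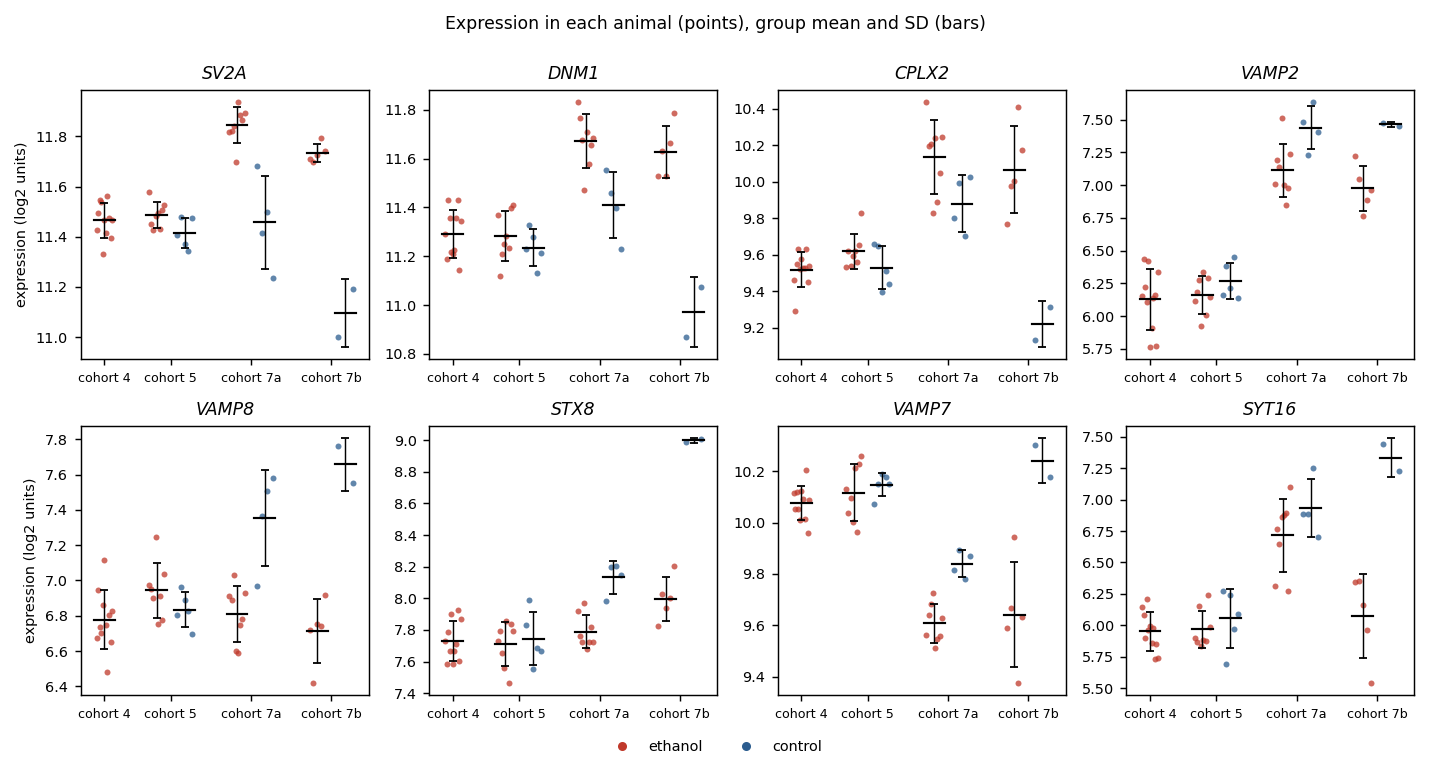
Expression in each animal (y axis, log2 units) by cohort and treatment for 8 genes, ethanol in red left of control in blue, with group mean and SD as bars. For SV2A the 13 ethanol animals of cohorts 7a and 7b lie between 11.70 and 11.94, above their 6 controls. For STX8 and VAMP7 the ethanol animals lie below the controls within each of these cohorts.

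Among syntaxins, the SNAREs of target membranes, calls went both ways. Of 11 syntaxins, 1 was higher and 1 lower in cohort 7a, and 3 were higher and 1 lower in cohort 7b. The median log2 difference was 0.05 in cohort 7a and -0.08 in cohort 7b. STX8, which pairs with VAMP8 at late endosomes, was lower in both. It ran from 7.68 over a median of 7.74 to 7.97 in ethanol animals of cohort 7a, against 7.98, 8.20, 8.20 and 8.15 in controls. In cohort 7b it was 7.82, 8.02, 7.94, 8.0 and 8.20 in ethanol animals and 8.99 and 9.01 in controls. Neither cohort showed overlap. The log2 differences were -0.34 (SE 0.08, limma adjusted p = 0.000995) and -1.0 (SE 0.11, limma adjusted p = 1.11e-09), which put ethanol animals at 0.789 and 0.50 of the control level. In cohort 5 the difference was -0.03, and the difference of effects was -0.64 (SE 0.10, limma adjusted p = 4.09e-06). The mean difference was -0.46 in the batch of cohort 7a alone and -0.66 in the batch with 1 animal of each group and cohort, and the 2 batches that did not balance the cohorts gave -0.22 and -1.20.

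STX1A, the syntaxin of transmitter release, did not pass over all arrays (log2 difference -0.03, SE 0.17, limma adjusted p = 0.924). In cohort 7b it was 8.28, 8.41, 8.45, 8.21 and 8.87 in ethanol animals, against 7.95 and 8.04 in controls, and the groups differed by 0.45 log2 units (SE 0.14, limma adjusted p = 0.0073). With processing batch as a block this was 0.31 (limma adjusted p = 0.114), without control 37 it was 0.41 (limma adjusted p = 0.0899), and cohort 7a gave 0.05. STX3, a close relative at the plasma membrane of dendrites and retinal terminals, ran from 8.35 over a median of 8.62 to 8.79 in ethanol animals of cohort 7a, against 8.28, 8.23, 8.42 and 8.19 in controls, with 6 of 8 ethanol animals above every control. The groups differed by 0.31 log2 units (SE 0.08, limma adjusted p = 0.0029), beside 0.20 in cohort 7b (limma adjusted p = 0.139). The 2 other STX3 probesets gave 0.11 each in cohort 7a (limma adjusted p = 0.639 and 0.603), and averaging the probesets ended the call there. STX16, of the trans-Golgi network, was 8.24 ± 0.21 in all ethanol animals, against 8.0 ± 0.27 in all controls (SD, n = 32 and 11), and the groups differed by 0.23 log2 units (SE 0.08, limma adjusted p = 0.038). Its 2 other probesets gave -0.03 and -0.20, neither past the threshold, and with processing batch as a block the difference was 0.16 (limma adjusted p = 0.0949). Leaving out any control of cohort 7a or 7b also ended this call.

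Of 11 synaptotagmins, a family that includes calcium sensors, 1 was called in cohort 7a and 4 in cohort 7b. SYT1, the sensor of fast release in forebrain, was 13.38 ± 0.12 in all ethanol animals, against 13.33 ± 0.16 in all controls (SD, n = 32 and 11), and the groups differed by 0.06 log2 units (SE 0.05, limma adjusted p = 0.436). Its representative probeset passed in no cohort, while another of its probesets was called in cohort 7a at 0.28 (SE 0.08, limma adjusted p = 0.0075). SYT12, which lacks calcium binding, ran from 7.35 over a median of 7.65 to 7.80 in ethanol animals of cohort 7a, against 7.15, 7.35, 7.12 and 7.35 in controls. Of its 8 ethanol animals 7 lay above every control, with a group difference of 0.39 log2 units (SE 0.09, limma adjusted p = 0.0012), and cohort 7b gave 0.30 (SE 0.12, limma adjusted p = 0.0486). Without control 37 or 38 of cohort 7b its call did not pass (0.25 and 0.36, limma adjusted p = 0.276 and 0.0973), nor did it when any control of cohort 5 or ethanol animal 40, 42 or 43 of cohort 7b was left out.

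SYT16, another synaptotagmin without calcium binding, had the lowest difference of the 47 genes over all arrays, at -0.44 (SE 0.15, limma adjusted p = 0.0395). Leaving out any control of cohort 7a or 7b ended this call. Of the cohorts with controls, 7b alone passed, where ethanol animals had 6.35, 6.35, 6.16, 5.97 and 5.54 and controls 7.45 and 7.22, groups that differed by -1.26 log2 units (SE 0.18, limma adjusted p = 4.08e-07). In cohort 7a the range was 6.27 to 7.10 in ethanol animals and 6.70 to 7.25 in controls, and the difference of -0.22 did not pass (limma adjusted p = 0.223). SYT14 in cohort 7b fell by 0.48 (limma adjusted p = 0.022), while SYT3 was higher there by 0.54 (limma adjusted p = 0.000318). Neither of these calls passed with processing batch as a block, and SYT14 was dim, with a mean of 4.87 over all arrays.

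Calls among the proteins that prepare or clamp the vesicle went both ways. CPLX2, the complexin of excitatory forebrain neurons, ran from 9.83 over a median of 10.20 to 10.44 in ethanol animals of cohort 7a, against 9.80, 9.99, 9.70 and 10.03 in controls, and 6 of 8 lay above every control. In cohort 7b it was 9.77, 9.98, 10.01, 10.41 and 10.17 in ethanol animals, against 9.13 and 9.31 in controls. The log2 differences were 0.26 (SE 0.09, limma adjusted p = 0.0298) and 0.84 (SE 0.12, limma adjusted p = 6e-07), the second a 1.80-fold difference. The call of cohort 7a was lost without its control 25 or 27 (0.23 and 0.20, limma adjusted p = 0.0903 and 0.147). Cohort 5 gave 0.09, and the difference of effects was 0.46 (SE 0.11, limma adjusted p = 0.0018). A second, dimmer CPLX2 probeset gave -0.10 and -0.03 in cohorts 7a and 7b, neither past the threshold.

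UNC13B, the vesicle-priming protein Munc13-2, was higher by 0.30 in cohort 7a (SE 0.09, limma adjusted p = 0.0062) and by 0.30 in cohort 7b (SE 0.12, limma adjusted p = 0.0366), with ranges in cohort 7a of 8.33 to 8.65 in ethanol animals and 7.96 to 8.43 in controls. With processing batch as a block these were 0.22 and 0.32, with limma adjusted p of 0.0742 and 0.0722. The call of cohort 7a was also lost without its control 28 (0.23, limma adjusted p = 0.0645), and that of cohort 7b without either of its controls (0.34 and 0.27, limma adjusted p = 0.104 and 0.199) or without ethanol animal 41 or 42. UNC13D, the Munc13 of immune granules, gave -0.21 in cohort 7a (limma adjusted p = 0.043) and 0.06 in cohort 7b. That call was lost with processing batch as a block (-0.15, limma adjusted p = 0.244), with centred arrays, with array weights, with averaged probesets and with cohort 7a fitted alone, and its other probesets gave 0.06 and -0.15 in cohort 7a, neither past the threshold. RIMS3, a short RIM of the active zone, gave -0.00 in cohort 7a and was higher by 0.63 in cohort 7b (SE 0.08, limma adjusted p = 4.71e-08). A second, dimmer RIMS3 probeset gave 0.14 in cohort 7b (limma adjusted p = 0.469), and the call held with averaged probesets. STXBP3 and STXBP6, binders of syntaxins, fell in cohort 7b by 0.52 and 0.47, and the STXBP6 call was lost with processing batch as a block. SNAP47, the 1 measured relative of SNAP-25, fell there by 0.30 (limma adjusted p = 0.0025), a call that centring the arrays ended (-0.20, limma adjusted p = 0.0593).

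Vesicle membrane proteins held the one gene whose groups did not overlap across cohorts 7a and 7b together. SV2A, a transporter-like glycoprotein of all synaptic vesicles and the target of levetiracetam, ran from 11.70 to 11.94 in the 13 ethanol animals of these cohorts, against 11.00 to 11.68 in the 6 controls. Among all probesets, 2.24% lay above and 2.57% below their controls in this way, and 1 of 47 genes lay above and 0 of 47 below. The log2 difference was 0.39 in cohort 7a (SE 0.06, limma adjusted p = 1.48e-06) and 0.64 in cohort 7b (SE 0.08, limma adjusted p = 9.96e-09), or 1.31-fold and 1.56-fold. In cohort 5, ethanol animals ran from 11.43 over a median of 11.49 to 11.58 and controls had 11.41, 11.48, 11.37, 11.34 and 11.47, an overlapping pair with a difference of 0.07. The difference of effects was 0.44 (SE 0.07, limma adjusted p = 6.17e-06). Ethanol animals were higher by 0.33 in the batch of cohort 7a alone and by 0.57 in the batch with 1 animal of each group and cohort, and the 2 batches that did not balance the cohorts gave 0.22 and 0.84. In the 3 other mixed batches, where ethanol animals of cohorts 4 and 5 stood against controls of cohort 5, the differences were 0.01 to 0.10.

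SV2B, its relative in glutamatergic terminals, was higher over all arrays by 0.14 (SE 0.05, limma adjusted p = 0.0271), with 12.21 ± 0.12 in ethanol animals, against 12.06 ± 0.15 in controls (SD, n = 32 and 11). In cohort 7a it ran from 12.08 to 12.33 in ethanol animals, against 11.76 to 12.15 in controls, a difference of 0.24 (SE 0.07, limma adjusted p = 0.0092) that became 0.16 (limma adjusted p = 0.117) without control 28. SYN2, a synapsin that tethers vesicles in the reserve pool, was higher in cohort 7b, at 10.16, 9.92, 10.36, 9.87 and 10.13 in ethanol animals, against 9.77 and 9.65 in controls. Its difference there was 0.37 (SE 0.12, limma adjusted p = 0.0116), or 0.31 without control 38 (limma adjusted p = 0.136), and in cohort 7a 0.09 (limma adjusted p = 0.448). The 2 other SYN2 probesets gave 0.19 and 0.17 in cohort 7b (limma adjusted p = 0.598 and 0.26), and averaging the probesets ended the call there. Neither synaptogyrin passed in any cohort by its representative probeset. A dimmer SYNGR2 probeset was lower in cohort 7a (-0.46, limma adjusted p = 0.0478) and in cohort 7b (-0.62, limma adjusted p = 0.042). Another SYNGR2 probeset gave 0.04 and -0.08, neither past the threshold.

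Of the 3 dynamins, the GTPases of membrane fission, the neuronal DNM1 and the ubiquitous DNM2 were higher and DNM3 was not called. DNM1 ran from 11.47 over a median of 11.68 to 11.83 in ethanol animals of cohort 7a, against 11.55, 11.46, 11.40 and 11.23 in controls, with 7 of 8 ethanol animals above every control. In cohort 7b it was 11.53, 11.63, 11.53, 11.67 and 11.79 in ethanol animals, against 10.87 and 11.07 in controls. The log2 differences were 0.26 (SE 0.07, limma adjusted p = 0.0028) and 0.66 (SE 0.09, limma adjusted p = 2.35e-07), and the difference of effects was 0.41 (SE 0.09, limma adjusted p = 0.000227). DNM2 was 7.44 ± 0.12 in all ethanol animals, against 7.27 ± 0.17 in all controls (SD, n = 32 and 11), and the groups differed by 0.17 log2 units (SE 0.05, limma adjusted p = 0.0177), and cohort 7b gave 0.43 (SE 0.10, limma adjusted p = 0.000571). Its other, dimmer probeset gave 0.03 over all arrays and -0.08 in cohort 7b, neither past the threshold, and averaging the probesets ended both calls. NAPA, the SNAP adaptor of NSF, was higher in cohort 7a by 0.25 (SE 0.07, limma adjusted p = 0.0049), at 8.70 to 9.07 in ethanol animals and 8.61 to 8.71 in controls. A second NAPA probeset of nearly the same mean gave 0.12 there (limma adjusted p = 0.213), and the call held with averaged probesets.

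Summed levels of neuronal markers overlapped between the groups of cohorts 7a and 7b. Those of astrocytes and endothelium stood apart in cohort 7b, and those of microglia in each of these cohorts, as given above. The log2 of the summed level of 8 pan-neuronal genes was 14.76 to 15.05 in ethanol animals of cohorts 7a and 7b, against 14.68 to 14.96 in their controls. Of these 8 genes 3 were higher in cohort 7a, and 1 was higher and 1 lower in cohort 7b. Of 5 excitatory markers, 1 was higher in cohort 7a, and 2 were higher and 2 lower in cohort 7b. Of 4 inhibitory markers, 1 was higher and 1 lower in cohort 7a, and 1 higher and 2 lower in cohort 7b. Differences of the inhibitory markers ran from -0.39 to 1.51 in cohort 7a and from -1.53 to 2.22 in cohort 7b. The summed levels of both lists overlapped between groups in each of these cohorts. In cohort 7b the log2 of the summed level of 4 astrocyte genes was 14.57 to 14.69 in ethanol animals, against 14.10 and 14.15 in controls, with GFAP and SLC1A2 called higher and the other 2 not called. Over 5 endothelial genes it was 9.95 to 10.10 in ethanol animals, against 10.30 and 10.31 in controls, with CLDN5, PECAM1 and CDH5 called lower. In cohort 7a both sums overlapped. The part of cell makeup in the synaptic genes was not tested.

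Other genes of vesicle release and retrieval were also called in both directions. Of 44 such genes, 2 were higher and 5 lower over all arrays, against 5.57% and 10.6% of all probesets. In cohort 7a 10 were higher and 6 lower, against 10.6% and 20.3%, and in cohort 7b 14 were higher and 11 lower, against 14% and 26.1%. Higher over all arrays were AP2A2, a subunit of the AP-2 adaptor (0.21, limma adjusted p = 0.0016), and EPN1, epsin 1 (0.29, limma adjusted p = 0.0056). Lower ones were SNAPIN, a SNARE-binding protein of lysosome positioning (-0.35, limma adjusted p = 0.0048), SEC22B and BET1, SNAREs of the early secretory path (-0.24 each, limma adjusted p = 0.0056 and 0.0222), the clathrin light chain CLTA (-0.19) and the vesicle protein SYNPR (-0.16). SNAPIN gave -0.54 in cohort 7a (SE 0.06, limma adjusted p = 2.87e-08) and -1.04 in cohort 7b (SE 0.09, limma adjusted p = 2.85e-12), beside 0.08 in cohort 5.

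Levels also differed between cohorts. Drinkers of cohorts 7a and 7b were set against drinkers of cohorts 4 and 5, a comparison in which cohort, extraction kit and processing batch cannot be told apart. RNA quality differed with them. The actin 3′ minus 5′ value was 0.76 to 1.71 in drinkers of cohorts 7a and 7b, against 4.31 to 4.95 in those of cohorts 4 and 5. For GAPDH it was 0.60 to 1.51, against 2.13 to 2.57. The part of RNA quality in these levels was not tested. Of the 47 genes, 20 were higher and 10 lower, against 35.5% and 29.3% of all probesets. Centring the arrays moved the median of all probesets from 0.02 to -0.13 log2 units and gave 14 higher and 20 lower of the 47 genes. NAPA differed by 1.12 (SE 0.04, limma adjusted p = 2.01e-25), STX1A by 1.02 (SE 0.06, limma adjusted p = 1.58e-18), VAMP2 by 0.90 (SE 0.07, limma adjusted p = 2.25e-15) and SYNGR2, a synaptogyrin found in many tissues, by 0.83 (SE 0.05, limma adjusted p = 7.53e-18), and each stayed higher with centred arrays. The controls stood apart likewise. NAPA was 8.61 to 8.76 in the 6 controls of cohorts 7a and 7b, against 7.66 to 7.94 in the 5 controls of cohort 5.

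**Figure D4:**
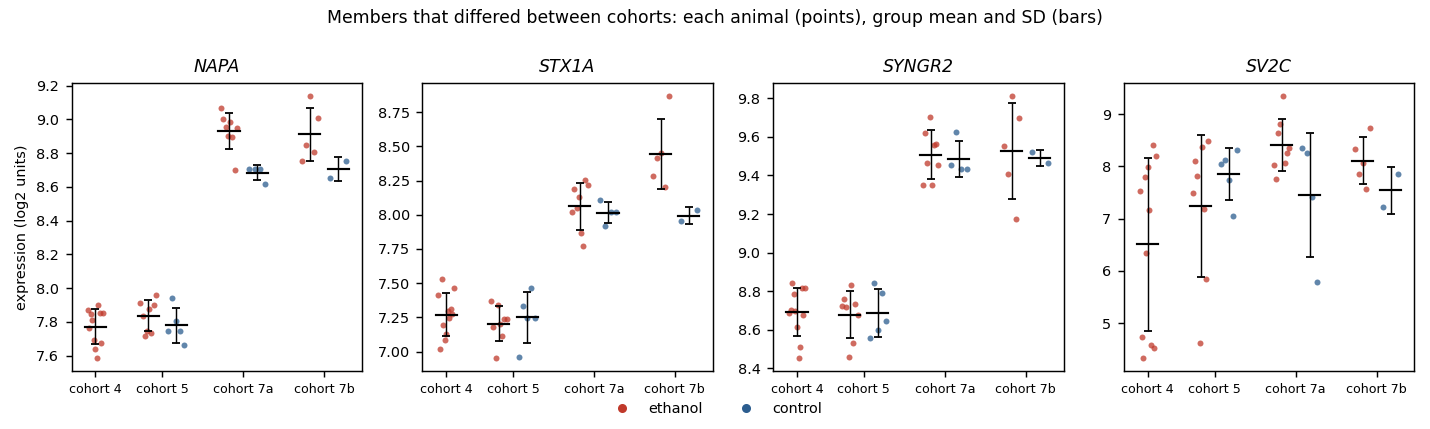
Expression in each animal (y axis, log2 units) by cohort and treatment for NAPA, STX1A, SYNGR2 and SV2C, ethanol in red left of control in blue, with group mean and SD as bars. NAPA, STX1A and SYNGR2 are higher in cohorts 7a and 7b in both treatments, and SV2C spreads from 4.34 to 9.34.

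SV2C, the SV2 protein most abundant in basal ganglia, had the largest SD of the 47 genes in every group but the 2 controls of cohort 7b. It ran from 4.34 over a median of 7.92 to 9.34 in all ethanol animals, against 5.78 over 7.86 to 8.35 in all controls. Of the ethanol animals in cohort 4, 4 lay between 4.34 and 4.73 and the other 7 between 6.34 and 8.40. Cohort 5 gave a log2 difference of -0.62, cohort 7a one of 0.96 and cohort 7b one of 0.56, with standard errors of 0.62, 0.67 and 0.91, and none passed. Drinkers of cohorts 7a and 7b were higher than drinkers of cohorts 4 and 5 by 1.38 (SE 0.40, limma adjusted p = 0.0025).

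Some of these genes varied together within groups. After each group mean was removed, the highest Pearson correlations over the 43 arrays were 0.731 between DNM3 and SYT1, 0.701 between SV2B and SYT1, and 0.685 between DNM3 and SV2B, all abundant in neurons. DNM1 and SV2A had 0.638, and the lowest value was -0.720 between STX12 and VAMP4. These points share animals, arrays and processing batches, and the values are given as a description.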

How the data were processed

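The authors deposited log2 values per probeset from Affymetrix Rhesus arrays, made by RMA with the affy package (per the labels) and quantile normalised over all 43 arrays. Array medians were 5.74 to 5.87. Of 52865 probesets, 24151 with a gene symbol and not under 3.5 in at least 80% of arrays were tested with limma 3.58.1 (R 4.3.3) and Benjamini-Hochberg adjustment, on the deposited values. Ethanol was compared with control over all arrays, with treatment as the factor, as in the study. It was also compared within cohorts 5, 7a and 7b from group means. The paper adjusted its values for processing batch with ComBat, and its comparison tested more probesets at a stricter threshold. The deposited values used here were not adjusted for batch, and fits without a block made no allowance for it. The 8 processing batches were recovered by matching deposited values to batch-adjusted values of 912 probesets in the supplement and were used only as a block. Exact permutation tests used scipy 1.17.1. Genes named by rule were the measured synaptic core, the 6 highest and 6 lowest differences among calls over all arrays, the 3 highest and 3 lowest among calls in cohort 7a, and the 3 smallest p-values for the difference of effects. The members and lists were chosen with earlier results of these data known. The fit over all arrays was tested on simulated data, which held no cohort or batch differences. Replicates are animals. The number of arrays limits the precision.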

Additional observations from a re-analysis of the deposited data

Results flagged for a closer look

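For the 18 genes named by rule, 90 groups of 4 to 10 animals were examined for a lowest or highest animal far from the rest, and 3 had one, where chance gives about 1 in 20 groups. CPLX2 was 9.83 in ethanol animal 24 of cohort 5, the next being 9.65. SYN2 was 9.73 in control 28 of cohort 7a, the next being 9.92. DNM2 was 7.61 in ethanol animal 20 of cohort 5, the next being 7.50.

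The ethanol effect in cohorts 7a and 7b differed from that in cohort 5, by the test of the difference itself (limma adjusted p under 0.05), for 13 of the 18 genes, beside 31.6% of all probesets. These genes were named in part for their calls, and VAMP8, STX8 and SV2A also for this difference, so the count is a description. It was more positive by 0.46 log2 units for CPLX2, 0.44 for SV2A, 0.42 for STX16, 0.41 for DNM1, 0.34 for UNC13B, 0.30 for SYN2, 0.30 for SYT12, 0.29 for STX3 and 0.25 for DNM2. It was more negative for VAMP8 (-0.85), SYT16 (-0.65), STX8 (-0.64) and VAMP4 (-0.46). Cohort, extraction kit, processing batch and RNA quality, by the actin value, cannot be told apart in this comparison.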

How the results depend on the processing

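Of 1422 recomputed single-gene differences under other settings, 1226 kept direction and side of the threshold. Over all arrays, the 6 genes higher, 4 lower and 3901 probesets called became 12, 9 and 8044 with cohort as a block, 12, 7 and 6972 with processing group as a block, 3, 2 and 2339 without cohort 4, 1, 0 and 1490 in cohorts 5 and 7a with cohort as a block, and 0, 0 and 0 with array weights. Averaging a gene's probesets gave 7 lower and 2494 features called. Settings chosen after seeing the data gave 3, 2 and 1679 with batch block and actin value, 11, 8 and 7650 in cohorts 7a and 7b with batch block, and 0, 0 and 0 in cohorts 4 and 5 with batch block. In cohort 7a, 8 higher and 7 lower became 14 and 3 with centred arrays, and 4 lower with the cohort alone or the batch block. In cohort 7b, 12 higher became 19 with centred arrays and 7 with the cohort alone or the batch block, and 11 lower became 7 with the cohort alone. For the difference of effects, 10 positive became 17 with centred arrays and 6 with averaged probesets. Between cohorts, 10 lower became 20 and 6. Leaving out 1 array gave 1 to 7 higher, 1 to 6 lower and 1719 to 5114 probesets over all arrays, 0 to 0 in cohort 5, 7 to 9 higher and 5 to 8 lower in cohort 7a, 7 to 14 and 6 to 11 in cohort 7b, 6 to 11 positive and 6 to 9 negative for the difference of effects, and 19 to 22 higher and 9 to 12 lower between cohorts. Signs turned, over all arrays, for SYT1 (-0.0015 with array weights, -0.0096 with averaged probesets, -0.0307 in cohorts 4 and 5 with batch block), SYN2 (-0.0848 with averaged probesets) and, in cohorts 4 and 5 with batch block, VAMP8 (0.0096), STX8 (0.0036) and VAMP4 (0.0299). STX1A turned to 0.0868 with cohort, 0.0974 with processing group and 0.0756 with batch as a block, 0.14 with cohort and actin, 0.12 with batch and actin, 0.16 without cohort 4, 0.0351 with centred arrays, 0.14 in cohorts 7a and 7b and 0.0163 in cohorts 4 and 5 with batch block, and -0.0999 to 0.0147 with 1 array left out. The cause was not tested. No paired analysis was possible because each animal's number occurs once.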
